A study of Homo sapiens with 2 samples.

Results

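Divergent transcripts are RNAs that start near the promoter of another gene and run away from it on the opposite strand, and the gene nomenclature gives them the symbol of that gene with the ending DT. The rows of the count table whose Ensembl identifier maps to a symbol ending in DT were taken as members, 565 of 64081 gene rows, and 560 of them were paired with the row of the gene of the same symbol without the ending, called the partner. The DT rows carry 564 symbols, since TNFRSF10A-DT has 2 rows, and the annotation lists 590 DT genes in all. All 560 partners were protein-coding genes, and 564 of the DT rows were lncRNAs.

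The counts come from LNCaP cells, an androgen-responsive human prostate carcinoma line with luminal features, grown for 48 h in medium with charcoal stripped serum, that is, without androgen. There was a single group of 2 biological replicates, whose poly(A)+ RNA was sequenced in pairs by a strand-oriented protocol and whose counts were deposited as the sum of both. The replicates could therefore not be separated, and no value has a replicate error. The 95% intervals of single counts, and of the share of a pair's sum, cover the error of counting alone. The pairs carry no molecular identifiers, and several can stem from a single molecule. The intervals of shares of rows and of medians over rows take the rows as units. The series holds this group alone, so no test between conditions was made.

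Many mammalian promoters are transcribed in both directions. Stable mRNA is made on the gene side, and on the other side the RNA is usually short-lived, ends early at polyadenylation signals and is degraded by the nuclear exosome, which the NEXT and PAXT adaptor complexes guide to it. The divergent RNAs that receive a gene symbol are those that were found as spliced or polyadenylated transcripts in at least some tissue. Many lie at promoters rich in CpG dinucleotides.

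How a strand is assigned decides what a row of the table lists. The methods give the TopHat library type fr-secondstrand for the LNCaP libraries and the reverse option of htseq-count for strand-specific pairs. Read literally, these settings credit a row with pairs transcribed from the strand opposite its gene, so that a DT row would list pairs from the partner's strand and a partner row pairs from the DT strand. The values below are therefore called listed counts and not levels, and the strand of origin of the pairs was not tested.

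Across the series, 9495309 pairs were counted on genes, the 3 highest rows held 48.5% of them, and 138995418 uniquely placed pairs fell on no feature, 93.5% of the uniquely placed pairs. Of 9 luminal prostate markers, 8 had at least 10 counts, where 44.0% of protein-coding rows that are no partner did. The 9 ranged from 8 for HOXB13 to 6947 for KRT8, with KLK3 at 18. KRT8 and KRT18 (595) each had 525 nt opposite another exon and TMPRSS2 (15) had 562 nt, while the other luminal markers had none. The basal markers KRT5, KRT14 and TP63 were at 0, 1 and 1, the leukocyte markers PTPRC and CD3E at 1 and 0, and the endothelial marker VWF at 0. The fibroblast markers COL1A1, COL1A2 and DCN were listed at 6, 6 and 15; DCN lay within the range of the luminal markers and the collagen genes below it.

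The 5′ ends of DT and partner genes lay close together. Of the 560 pairs, 559 were on opposite strands, 416 pointed away from each other without overlap, in 142 the spans overlapped, and 1 pair lay tail to tail without overlap. The 5′ ends were within 1000 nt of each other in 492 pairs and apart by 1 to 300 nt in 322. The distance had a median of 100 nt and quartiles of -10 and 224 nt. A negative distance means that the 5′ ends had crossed, in all but 1 of these pairs with overlapping spans. In 21 pairs the ends were over 1000 nt apart and in 46 they had crossed by over 1000 nt, with overlapping spans in 45, so the name does not assure a shared promoter. The exonic length of the DT genes had a median of 1832 nt (range 183 to 35212), against 6180 nt for the partners.

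The DNA between the 5′ ends is the sequence that both transcripts of a pair would start from. Such intervals are printed for 5 pairs on GRCh37 from GENCODE gene starts, in lower case, 5′ to 3′ on the partner's strand, ending at the base before the partner's start; WDR5B-DT and SNRPA1-DT are shown because their DT rows are among the 10 highest, and PRPF39-DT, POLG-DT and FN1-DT because the DT row was at 0 while the partner row was high. Capitals mark exact matches on either strand to the GC box (GGGCGG), the CCAAT box (CCAAT), NRF1 (CGCATGCG), ETS (CCGGAAG), YY1 (AAGATGGC) or TATA box (TATAAA) letters, and matches may overlap.
WDR5B-DT, chr3:122134910-122135046, minus strand: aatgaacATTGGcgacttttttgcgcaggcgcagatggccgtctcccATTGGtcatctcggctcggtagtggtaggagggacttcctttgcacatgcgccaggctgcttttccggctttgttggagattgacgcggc
SNRPA1-DT, chr15:101835488-101835623, minus strand: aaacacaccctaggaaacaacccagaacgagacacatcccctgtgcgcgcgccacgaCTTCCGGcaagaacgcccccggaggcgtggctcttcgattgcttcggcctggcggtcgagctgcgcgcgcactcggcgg
PRPF39-DT, chr14:45553181-45553309, plus strand: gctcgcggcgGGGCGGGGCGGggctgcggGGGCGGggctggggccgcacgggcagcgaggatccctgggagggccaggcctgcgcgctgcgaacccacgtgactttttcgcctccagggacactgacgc
POLG-DT, chr15:89878093-89878283, minus strand: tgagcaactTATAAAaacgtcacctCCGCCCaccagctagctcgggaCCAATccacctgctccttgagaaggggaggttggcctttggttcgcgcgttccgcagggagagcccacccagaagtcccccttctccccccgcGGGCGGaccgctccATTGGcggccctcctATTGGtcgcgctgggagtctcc
FN1-DT, chr2:216300797-216300975, minus strand: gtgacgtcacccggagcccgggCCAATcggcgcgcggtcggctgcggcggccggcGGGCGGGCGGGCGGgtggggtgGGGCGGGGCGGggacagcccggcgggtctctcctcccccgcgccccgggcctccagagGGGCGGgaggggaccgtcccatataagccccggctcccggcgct

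The PRPF39-DT interval held 3 GC boxes, the FN1-DT interval 6 and a CCAAT box, and the POLG-DT interval 2 GC boxes, 3 CCAAT boxes and a TATA box. The WDR5B-DT interval held 2 CCAAT boxes and the SNRPA1-DT interval 1 ETS match. A match is a description of these letters and not a binding site. These few intervals are examples. In the 200 nt before the start of all partners, a GC box stood in 57.2% of 152 partners of DT rows with at least 10 counts and in 63.6% of 407 partners of the other DT rows, a CCAAT box in 35.5% and 28.0%, and an ETS match in 18.4% and 12.3%. The median GC content was 63.75% and 69.0%. The GC content ran from 56.2% at WDR5B-DT to 82.1% at FN1-DT, and these intervals held 10 and 27 CpG dinucleotides.

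Over the 298 intervals of 30 to 300 nt, the median length was 118.5 nt and the median GC content 71.2%. For a comparison at equal length, the 200 nt before the start of 559 partner genes were set beside those of 18840 other protein-coding genes. The median GC content was 67.0% against 60.5%, and the median number of CpG dinucleotides 18 against 11. A GC box stood in 61.9% of the partner promoters and in 46.5% of the others, an ETS match in 14.0% against 8.04%, and a TATA box in 3.58% against 8.08%. The shares with a CCAAT box were 30.1% and 29.2%, with NRF1 2.33% and 1.84%, and with YY1 0.537% and 1.14%. In these windows partner promoters were thus richer in GC, GC boxes and ETS letters and poorer in TATA boxes, while the CCAAT box was about as frequent.

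The listed counts of DT rows were low, as were those of all rows with a gene model. At least 10 counts were listed for 154 of 565 rows, 27.3% (exact binomial interval 23.6 to 31.1), where the background was 26.5% of all rows with a gene model and 28.5% of lncRNA rows not named DT. The DT share was close to both. Of the DT rows, 275 were at 0, which for a single row allows up to 3 counts (one-sided 95% limit), 136 had 1 to 9 counts, 65 had at least 100 and 14 at least 1000. Zeros were about as common in the backgrounds, with 28821 of 55538 rows with a gene model and 6209 of 12241 lncRNA rows not named DT. The median of the DT rows was 1 count, and that of both backgrounds 0. The sum over all DT rows was 56013, or 0.590% of the pairs counted on genes, and the 10 highest rows held 59.9% of it.

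What lay on the other strand divided the DT rows. The exons of 365 DT genes faced no annotated exon, and 52 of these rows, 14.2% (10.8 to 18.3), had at least 10 counts, with a median of 0 and a highest value of 308. The exons of 200 faced an exon of some gene on the opposite strand, and 102 of these rows, 51.0% (43.9 to 58.1), had at least 10 counts, with a median of 10.5. These 200 rows held 93.9% of all pairs listed for DT rows. The same split stood in lncRNA rows not named DT, of which 16.0% reached 10 counts with no exon opposite and 51.6% with an exon opposite. DT rows fell on these background shares within their intervals, so the split is not particular to them.

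**Figure D1:**
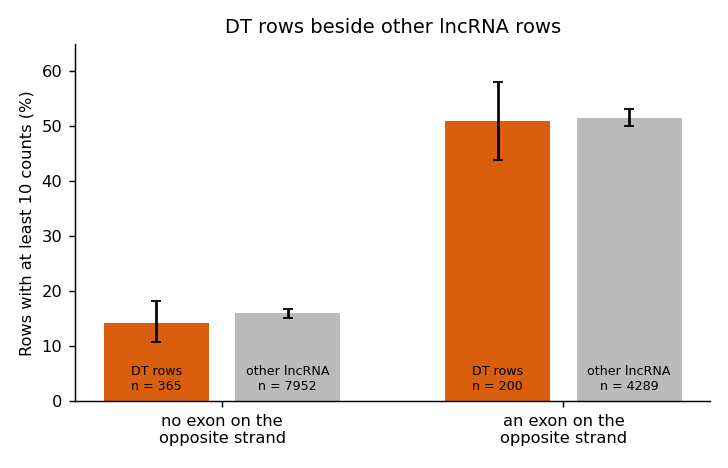
Share of rows with at least 10 counts, in percent, for DT rows (orange) and lncRNA rows not named DT (grey), by whether an annotated exon lies on the opposite strand; bars start at 0 and error bars are exact binomial 95% intervals for counting of rows. The DT shares of 14.2% and 51.0% stand beside 16.0% and 51.6%.

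The rows were divided further by the kind of opposite gene. With no gene opposite, 38 of 312 rows (12.2%) had at least 10 counts. With only an intron opposite, 14 of 53 did (26.4%), and with only exons of the partner opposite, 31 of 85 (36.5%). The share was 64.6% (53 of 82) where the exons faced only a gene other than the partner and 54.5% (18 of 33) where they faced both. The medians in this order were 0, 1, 2, 30 and 14, and the 82 rows that faced only another gene held 73.5% of the DT sum.

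**Figure D2:**
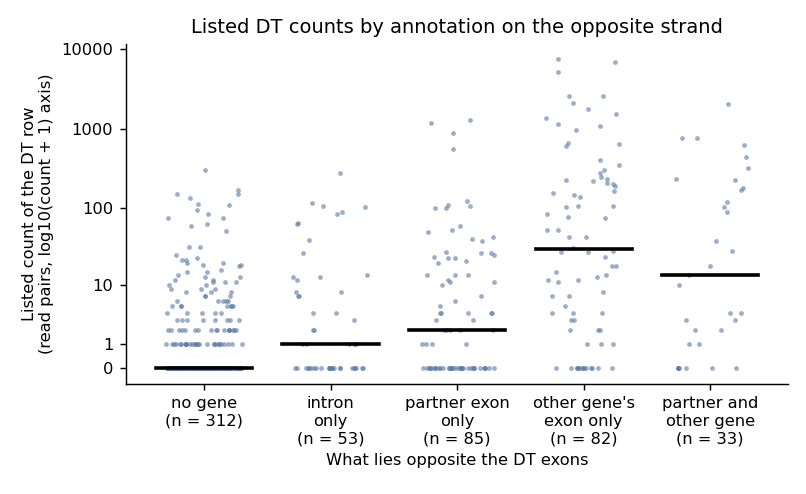
Listed count of each DT row on a log10(count + 1) axis, by what lies opposite its exons; each point is a DT row, spread sideways for sight, and black lines are medians. The medians are 0, 1, 2, 30 and 14 from left to right, and every group holds rows at 0.

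In 115 DT rows the exons faced an exon of a gene other than the partner, and their median was 28 (order-statistic interval 12 to 85). Where that gene was protein-coding (77 rows) the median was 85. The ends were placed for the other gene that shared most bases, and further opposite genes were not placed. In 65 rows only the 3′ end of that other gene lay inside the DT gene, as where a neighbour runs toward the DT gene from the far side. These rows had a median of 106 and held 70.5% of the DT sum. In 39 rows the whole other gene lay inside, with a median of 4, in 5 rows only its 5′ end, with a median of 3, and in 6 rows neither end, with a median of 318. Most of the pairs listed for DT rows thus belonged to rows whose DT gene held only the 3′ end of the other gene that shared most bases. A row holds a single value, so where in the gene its pairs lay was not measured. The 2 rows of TNFRSF10A-DT, at 608 and 234 counts, faced each other over 1125 nt, and the row at 608 lies on the strand of TNFRSF10A itself.

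The 10 highest DT rows were all opposite exons of a protein-coding gene other than the partner. The highest was MVP-DT (ENSG00000238045.5, GRCh37 chr16:29819957-29832573, minus strand), at the promoter of MVP, which encodes the major vault protein. Its listed count was 7468 (exact Poisson interval 7300 to 7639), and that of MVP was 48. Its exons shared 1536 nt with exons of MAZ, a zinc finger transcription factor gene whose own row listed 160. In all, 2506 nt of the MVP-DT exons faced an annotated exon, so MAZ was not the only gene opposite.

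KPNB1-DT (chr17:45681226-45726815) was listed at 6842 (6681 to 7006) and KPNB1, the gene of the nuclear import receptor importin beta, at 151. It faced 510 nt of NPEPPS, an aminopeptidase gene listed at 70. CTDSPL2-DT (chr15:44694883-44719342) was listed at 5173 beside 218 for CTDSPL2, a phosphatase-like gene, and faced 309 nt of GOLM2, a Golgi membrane protein gene listed at 37. In each of these pairs the DT row held over 95% of the sum, 99.4% for MVP, 97.8% for KPNB1 and 96.0% for CTDSPL2.

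WDR5B-DT (chr3:122135047-122162027) was listed at 2613 and WDR5B, a WD repeat gene, at 161. Its exons shared 1377 nt with KPNA1, an importin alpha gene listed at 1298, the nearest to its own count among the 10. EOGT-DT (chr3:69063092-69105773) was listed at 2583, against 8 for EOGT, the glycosyltransferase that adds GlcNAc to EGF domains. It faced 611 nt of TMF1, a Golgi-associated factor gene listed at 6.

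For CTTN-DT the counts were 2081 and 13, CTTN being the gene of the actin-binding protein cortactin, and its exons faced 549 nt of PPFIA1 (liprin alpha, listed at 444) and 85 nt of CTTN itself. SNRPA1-DT was listed at 1783 and SNRPA1, a protein of the spliceosomal U2 particle, at 24, with 1897 nt opposite the proprotein convertase gene PCSK6 (93). The DT rows held 99.4% and 98.7% of the sums of these pairs.

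NQO1-DT had 1531 counts and NQO1, a quinone reductase of the oxidative stress response, 237, the largest partner count of the 10, and 429 nt faced NOB1, an endonuclease of ribosomal RNA maturation listed at 41. EPM2A-DT was listed at 1374 and EPM2A, the glycogen phosphatase laforin, at 3, with 1981 nt opposite SHPRH, a ubiquitin ligase gene listed at 42. The 5′ ends of this pair stood 63386 nt apart. ZNF8-DT, with 2115 counts, has no partner row here and faced 414 nt of the zinc finger gene ZNF544 (293). The DT row was above its partner row in the other 9 pairs. In all 10 it was above the row of the other gene with which it shared most bases, the only opposite gene compared.

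**Figure D3:**
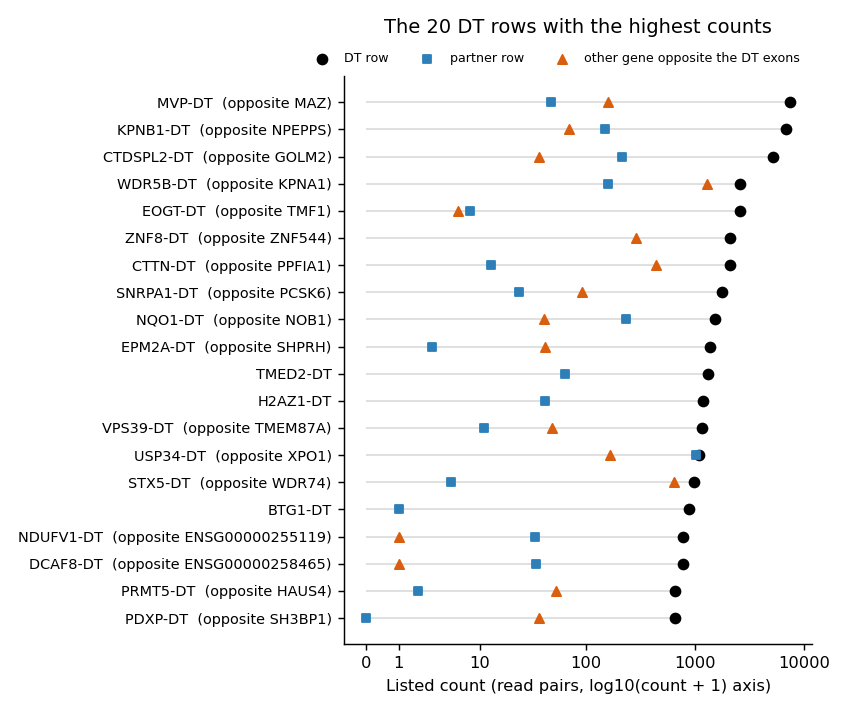
Listed counts on a log10(count + 1) axis for the 20 DT rows with the highest counts (black circles), their partner rows (blue squares) and the rows of the other gene that shares most exonic bases on the opposite strand (orange triangles). The DT count exceeds the partner count in the 19 pairs with a partner, and 17 of the 20 rows face another gene.

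Among the 20 highest DT rows, 17 faced an exon of a gene other than the partner, 3 faced only the partner and 0 faced no exon. Those 3, named after their values were seen, were TMED2-DT (1314, partner 64, 284 nt shared), H2AZ1-DT (1187, partner 42, 223 nt) and BTG1-DT (889, partner 1, 274 nt). TMED2 encodes a cargo receptor of the early secretory pathway, H2AZ1 a histone variant and BTG1 an antiproliferative factor. In 104 DT rows, the other gene that shared most bases had a row of its own, and the DT row was the higher in 60.

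The DT rows were also divided by the exonic bases they share with their partner. The median DT count was 0 in 444 pairs without shared exonic bases, 2 in 45 pairs with 1 to 100 nt, 3.5 in 60 pairs with over 100 and up to 500 nt and 24 in 11 pairs with more. Among those DT rows that faced no gene other than the partner the medians were 0, 2, 1 and 37, over 363, 36, 40 and 8 rows, so the middle classes did not rise in order. The partner rows of all 560 pairs in the same order had medians of 8, 18, 21.5 and 30. Across 560 pairs Spearman's rho of DT count and nucleotides shared with the partner was 0.17, and across 565 rows that of DT count and nucleotides shared with any gene was 0.43. With the length of the DT gene it was 0.25. These are descriptions of genes that share both libraries and their depth.

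Of the 5 pairs with the most shared bases, 4 are described, and they showed no common direction. TRIM8-DT (102, partner 17) and AHI1-DT (24, partner 3) had the higher count on the DT row. TRIM8 encodes a ubiquitin ligase and AHI1 a protein of the primary cilium. CTBP1-DT was at 23 and CTBP1, a transcriptional corepressor, at 888, while ST8SIA5-DT and ST8SIA5, a sialyltransferase, were both at 0. The shared lengths were 1349, 885, 701 and 672 nt, and in TRIM8-DT all exonic bases faced its partner.

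Partner rows were listed higher than DT rows in most pairs. The DT count was the higher in 142 pairs, the partner count in 365, and 53 were equal, 45 of them with both at 0. The DT row was therefore higher in 28.0% (24.1 to 32.1) of the 507 unequal pairs. In other pairs of a lncRNA and a protein-coding row with 5′ ends within 1000 nt on opposite strands, the background was 43.9% of 983. The interval of the DT pairs lies below it, but an exon stood opposite 68.6% of these other lncRNAs and 35.4% of the DT rows. With no exon opposite, the shares were 18.6% (14.5 to 23.3) for DT and 22.2% (17.6 to 27.5) for the other pairs, and their intervals overlap. Where DT exons faced a gene other than the partner, the share was 56.6% (46.6 to 66.2).

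Spearman's rho of DT and partner counts across the 560 pairs was 0.09, given as a description, and -0.34 across the 364 pairs with at least 10 counts together, a choice that itself removes pairs with both counts low. Both rows had at least 10 counts in 89 pairs, only the DT row in 64, only the partner row in 199 and neither in 208.

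**Figure D4:**
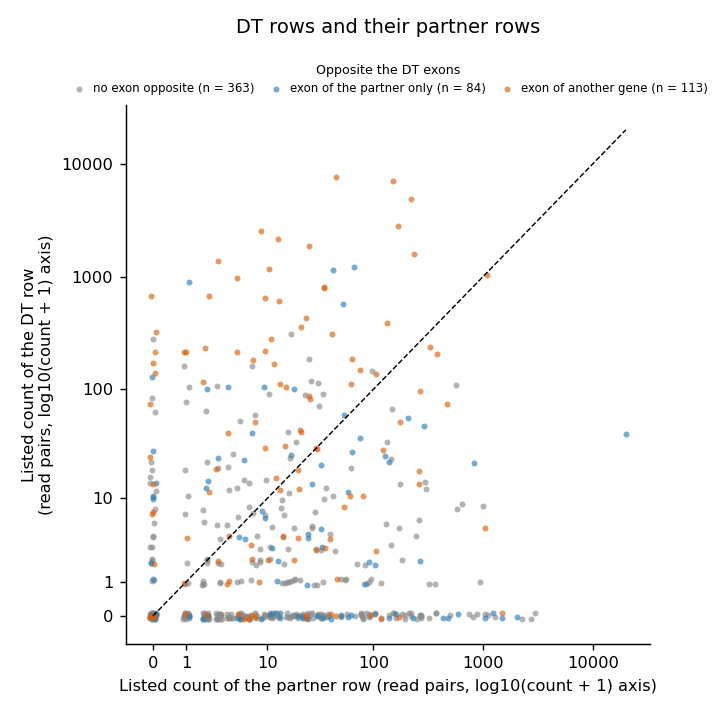
Listed count of each DT row against that of its partner row for 560 pairs, both on log10(count + 1) axes with a small sideways spread, coloured by what lies opposite the DT exons; the dashed line marks equal counts. Of the 507 unequal pairs, 142 lie above the line, and most of the highest DT counts are orange, facing another gene.

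Of 268 pairs without shared bases and with at least 10 counts together, the highest DT to partner ratios were those of PDXP-DT (654), B4GAT1-DT (305), RWDD3-DT (280), MRPS35-DT (220) and EPM2A-DT. The partner row was at 0 in the first 4, so no fold is given. PDXP encodes a pyridoxal phosphatase, B4GAT1 a glycosyltransferase that acts on dystroglycan, RWDD3 an enhancer of SUMO conjugation and MRPS35 a protein of the mitochondrial ribosome. RWDD3-DT faced no exon, and the others faced SH3BP1, SLC29A2, REP15 and SHPRH. The REP15 row was itself at 0.

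The lowest ratios were those of PRPF39-DT, POLG-DT, GAS6-DT, FN1-DT and ANKH-DT, all at 0. Their partners were listed at 2918 for PRPF39 (a splicing factor), 2849 for POLG (the mitochondrial DNA polymerase), 2226 for GAS6 (a ligand of TAM receptor kinases), 1327 for FN1 (fibronectin) and 1115 for ANKH (a pyrophosphate transporter). PRPF39 exons faced 654 nt of FKBP3, POLG 458 nt of FANCI and GAS6 421 nt of GAS6-AS1, whereas FN1 and ANKH faced no exon. High partner rows stood thus both with and without an exon opposite.

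As for the DT rows, partner rows differed by what lay opposite. At least 10 counts were listed for 288 of 559 partner rows, 51.5% (47.3 to 55.7), beside 44.0% of other protein-coding rows. With no exon opposite it was 38.1% (32.6 to 43.7) of 310 rows with a median of 5, and with an exon opposite 68.3% (62.1 to 74.0) of 249 rows with a median of 25. Of other protein-coding rows, 32.7% with no exon opposite and 63.8% with an exon opposite reached 10 counts, with medians of 3 (2 to 3) and 24 (22 to 26). Both shares lie within the intervals of the partner rows, the first just above the lower limit, and the median of 5 (4 to 7) for partners with no exon opposite lay above that of the other rows. Of the 20 highest partner rows, 18 faced an exon of a gene other than the DT, and 14 had a DT row at 0. Over all partner rows, 249 of 559 faced an exon of any gene, the DT included, and 275 of 565 DT rows were at 0. The highest, named after its value was seen, was MRNIP, a DNA repair factor gene, at 18736, whose exons faced 1582 nt of the autophagy receptor gene SQSTM1 (1818); MRNIP-DT was at 41.

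DT rows with no exon opposite share no annotated exonic base with the other strand, though 53 of the 365 lie opposite an intron. The highest, also named after their values were seen, were SOD1-DT (308), RWDD3-DT (280), ZNF454-DT (173), SPAG16-DT (153) and DDR1-DT (151). Their partner rows were at 18, 0, 25, 7 and 1. SOD1 encodes a superoxide dismutase and DDR1 a collagen receptor kinase. SOD1-DT (chr21:33025906-33031813) held 94.5% (91.4 to 96.7) of the sum of its pair, with the 5′ ends 166 nt apart. Among the 365 rows, 4 of 53 up to 500 nt long reached 10 counts, 18 of 170 over 500 and up to 2000 nt and 30 of 142 that were longer. The shares were 7.55% (2.09 to 18.2), 10.6% (6.40 to 16.2) and 21.1% (14.7 to 28.8), so the longest genes stood highest, with intervals that overlap.

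The same rows were divided by the distance between the 5′ ends. With ends 1 to 100 nt apart, 18 of 106 rows without an opposite exon had at least 10 counts (17.0%), over 100 and up to 300 nt apart 18 of 154 (11.7%), and over 300 and up to 1000 nt apart 6 of 61 (9.84%). Their intervals overlap (10.4 to 25.5, 7.08 to 17.8 and 3.70 to 20.2). Over 1000 nt apart it was 4 of 18 (22.2%, 6.41 to 47.6), and where the spans overlapped 5 of 23 (21.7%, 7.46 to 43.7), so the shares had no single direction with distance.

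Of 20 divergent transcripts familiar by name, 19 had a row. SP2-DT (32, partner 138) and BAIAP2-DT (25, partner 17) were the highest, then WDR11-DT (14, partner 2) and EIF2AK3-DT (13, partner 5). SP2 is a zinc finger transcription factor, BAIAP2 an adaptor of the actin cytoskeleton and EIF2AK3 the stress kinase PERK. BAIAP2-DT held 59.5% (43.3 to 74.4) of the sum of its pair, an interval that includes equal counts, while SP2-DT held 18.8% (13.2 to 25.5).

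UCHL1-DT (7, partner 9), KDM7A-DT (5, partner 3), RAB30-DT (4, partner 4), TMEM161B-DT (3, partner 103) and RNF139-DT (3, partner 46) had a few counts each. NUP50-DT was at 1 beside 308 for the nuclear pore gene NUP50, OSER1-DT at 1 beside 0 and MFF-DT at 1 beside 4. The other 7 were at 0: CHKB-DT, ITGB1-DT, DPH6-DT, AFDN-DT, PAXIP1-DT, CRIM1-DT and BOLA3-DT. Their partners ranged from 0 for CHKB to 281 for PAXIP1, a gene of the DNA damage response.

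The partners were also grouped by role from their symbols. The DT rows of 23 RNA processing and translation genes had a median of 8, with 11 at 10 counts or more. Those of 23 ubiquitin system genes had a median of 3 with 8, of 35 transcription factor genes a median of 1 with 11, and of 13 mitochondrial protein genes a median of 1 with 5. The DT rows of 27 kinase and phosphatase genes and of 43 transport and trafficking genes had medians of 0, with 7 and 12. Over all 565 rows the median was 1 and 27.3% reached 10 counts, and the interval of the share of each of the 6 groups includes that value, also for RNA processing and translation at 47.8% (26.8 to 69.4).

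Genes whose products degrade or terminate divergent RNA were read from the same table. All 27 had a row, 25 had at least 10 counts, where 44.0% of other protein-coding rows and 26.5% of all rows with a gene model did, and the median was 49. The highest was MTREX, the helicase of the nuclear exosome adaptors, at 5359, with 481 nt opposite another exon. The lowest was XRN2, the nuclease of transcription termination, at 1, with 143 nt opposite another exon. These rows are subject to the same reading of the strand as the DT rows.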

How the data were processed

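The table holds read pairs per gene of 2 LNCaP replicates. Per the labels and methods, the authors used Trimmomatic 0.30 for trimming, TopHat2 2.0.12 with Bowtie2 2.2.3 for alignment to hg19 and HTSeq 0.6.1p1 for counting pairs, and deposited the counts without normalization, both replicates summed in 1 column. Rows for unplaced or unassigned pairs were left out of all totals; the no-feature row alone equals 93.5% of uniquely placed pairs.

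Identifiers were matched without version to GENCODE gene models on GRCh37 (v44lift37), 55538 rows in all. The authors' annotation was older, and the gene version was the same for 224 of 565 DT rows, so exons can differ from those counted. Shared bases are the intersection of exon unions on opposite strands. Shares have exact binomial, counts exact Poisson and medians order-statistic intervals, at 95%. A row at 0 has 3 counts as its one-sided limit. The code was tested on simulated data. There was no test and no p-value, since there is a single group.

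Named are the 10 highest DT rows, the 5 pairs with most shared bases, the 5 highest and 5 lowest DT to partner ratios (0.5 added to both counts for ranking; at least 10 counts together, no shared bases), a list of known DT genes and a list of RNA turnover genes. A few items under these rules are not reported here. Others are said to be named after their values were seen. The members and lists were chosen with earlier results of these data known. Alternatives were other count minimums, counts per kb, subsets of pairs and the same gene version. Python 3.11.15, numpy 2.4.6, pandas 2.3.3, scipy 1.17.1 and matplotlib 3.10.9 were used.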

Additional observations from a re-analysis of the deposited data

Results flagged for a closer look

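Of the 5 rows outside the paired comparison, ZNF8-DT was listed at 2115 and PPP4R3B-DT at 4. They have no partner row among those matched, so their counts enter no comparison of pairs. The exact Poisson intervals were 2026 to 2207 for ZNF8-DT and 1.09 to 10.2 for PPP4R3B-DT. UHRF1BP1L-DT was at 2, and ARHGAP11B-DT and USP27X-DT were at 0. PPP4R3B-DT faced 489 nt of annotated PPP4R3B exons on the opposite strand.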

How the results depend on the processing

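No paired analysis was possible because the replicates share 1 column and there is a single group, and leaving out each replicate could not be run for the same reason. The share of DT rows past the minimum was 51.3% at a minimum of 1 count, 20.5% at 20 counts, 14.2% for rows with no exon opposite and, chosen after seeing the data, 20.1% for rows of the same gene version. The share of unequal pairs with the higher count on the DT row was 34.4% per kb, 32.8% with at least 10 counts together and, chosen after seeing the data, 18.6% with no exon opposite the DT and 21.0% at the same gene version. Per kb of exonic length, the median of DT rows that share bases with the partner went from 3.5 to 0.835. Those of partner rows with and without shared bases went from 19 to 3.12 and from 8 to 1.18. The median of DT rows facing another gene, an alternative chosen after seeing the data, went from 28 to 9.93 per kb. It was 85 counts for protein-coding neighbours only, also chosen after seeing the data. Spearman's rho of DT and partner counts was 0.12 per kb and, chosen after seeing the data, -0.34 among pairs with at least 10 counts together, and rho of DT count and shared bases 0.19 among pairs that share any. Without the 3 highest rows as part of the library size, MVP-DT went from 786 to 1528 CPM. The medians per kb are in another unit than the counts, and the second CPM value has a smaller library size. The cause of the other shifts was not tested. In 10 further alternatives a share or median stayed within the interval of its reported value or rho moved by at most 0.005. The low counts limit single rows: 411 of 565 DT rows had fewer than 10 counts, where an interval spans much of the value.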
